A study of Mus musculus with 18 samples.

Results

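Bone marrow adipocytes of 18-month-old mice were compared with those of 14-month-old mice, over all genes on the array. The 6 arrays of this comparison, 3 at each age, were chosen by the cell type and age in their sample records, out of 18 arrays in the study. The others hold bone marrow adipocytes of 6-month-old mice and epididymal white adipocytes, labelled peripheral adipocytes, of the same 3 ages. All mice were male C57BL/6J on standard chow, and the labels name no transgene, deletion or drug treatment. No array stands for a single mouse: every group of 6 to 10 animals was combined into 3 pools, with 1 array per pool. The spread between arrays is therefore that of pools. The p-values measure only such spread, taken within the groups of all 18 arrays in the fit.

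Marrow adipocytes lie in the same cavities as stromal, bone-forming and blood-forming cells, and marrow fat grows with age. They store triglyceride, and they also release cytokines and growth factors that act on bone cells and on blood cell precursors. The cells were obtained by flushing femurs and tibias, lysing red cells, and collecting what floated after centrifugation, with no sorting by a surface marker. Fat-filled cells float, and blood cells that stick to them or float with them can be carried along.

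The markers of mature adipocytes were low on these 6 arrays and those of blood cells were high, against the label. Adiponectin (Adipoq), a hormone of fat cells, read 7.42, 6.43 and 6.87 at 14 months and 6.97, 7.13 and 7.33 at 18 months, on the log2 intensity scale of the deposited values, where a difference of 1 is a doubling. The same probe set read 12.30 ± 0.08 (SD, n = 3) on the 14-month epididymal arrays. Perilipin 1 (Plin1), the coat protein of the large lipid droplet, read 6.12, 5.55 and 5.59 at 14 months and 5.69, 5.40 and 6.23 at 18 months in marrow and 12.20 ± 0.03 in 14-month epididymal adipocytes. Leptin (Lep) read 4.52, 4.50 and 4.09 at 14 months and 4.01, 4.16 and 3.98 at 18 months against 12.81 ± 0.14. Of the blood cell genes, the myeloid integrin Itgam read 11.20, 11.15 and 11.18 at 14 months and 10.67, 10.57 and 10.80 at 18 months, with 8.67 ± 0.13 in 14-month epididymal adipocytes. Myeloperoxidase (Mpo), made by granulocyte precursors, read 11.62, 11.45 and 11.09 at 14 months and 11.28, 11.49 and 11.85 at 18 months, with 4.73 ± 0.43 in the latter. Over the 27 mature adipocyte markers the mean level was 6.70 to 6.93 at 14 months and 6.54 to 6.69 at 18 months, against 11.38 to 11.60 on the 14-month epididymal arrays. Adipoq, Plin1 and Lep did not pass the test between the ages (changes 0.23 ± 0.29, 0.02 ± 0.23 and -0.32 ± 0.21, limma adjusted p = 0.732, 0.981 and 0.427). The paper reports that the floated marrow cells stained for neutral lipid and perilipin, with similar shares of CD11b-positive cells in both depots. By PCR it found fat cell genes higher in them than in marrow cells that did not float. It proposes that marrow adipocytes are at an early stage of differentiation. The samples are called bone marrow adipocyte preparations here, and their RNA includes that of blood cells. In such bulk RNA, fewer cells of a type and less RNA per cell cannot be told apart.

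The 2 ages differed in 3038 of the 23410 probe sets that name a gene, which is 13.0% (limma, Benjamini-Hochberg adjusted p under 0.05). Of these, 1111 rose and 1927 fell from 14 to 18 months, and 128 and 330 of them by at least 2-fold. Within an age the 3 arrays correlated at 0.992 to 0.994 over these probe sets, and between the ages at 0.982 to 0.986. The first principal component of the 6 arrays held 57.2% of their variance and put all 18-month arrays at 25.7 to 27.7 and all 14-month arrays at -30.4 to -23.0. The median SD between the arrays of an age was 0.133 at 14 months and 0.138 at 18 months. It was 0.219 on the 6-month marrow arrays. The fit takes its spread from all 18 arrays, so each SE and p-value also carries that of the 6-month and epididymal arrays. Without the 14-month replicate 3 the count was 2021. The direction of the calls depended on the scaling: 63.4% of them fell in the values as deposited, 52.5% after quantile normalization was repeated and 48.8% after each array was set to its ribosomal protein genes. Over the 19938 genes with a probe set of their own, 978 rose (4.91%) and 1739 fell (8.72%), and the shares of gene lists below are to be read against these percentages. The median change over all these genes was -0.03.

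**Figure D1:**
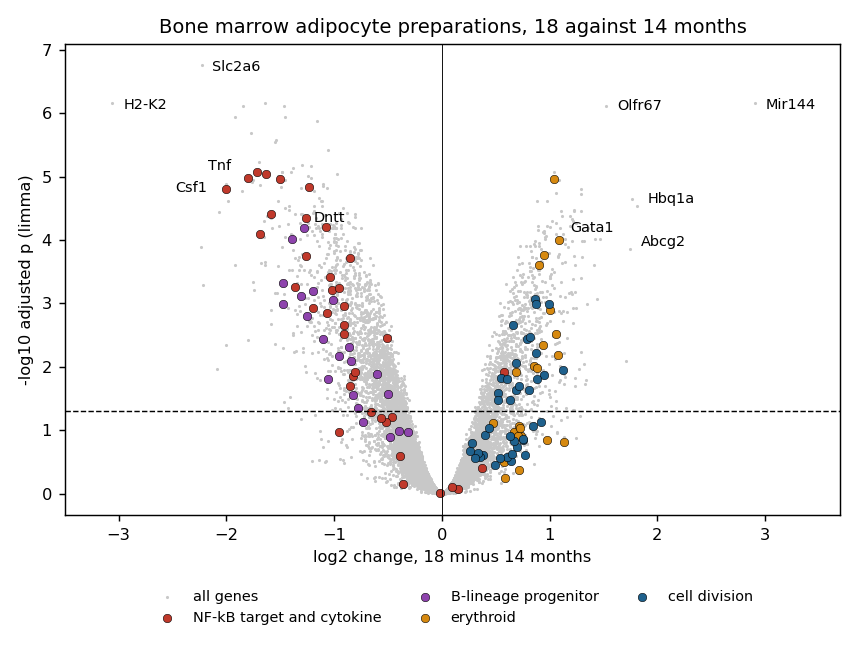
Change of each gene from 14 to 18 months (x axis, log2) against -log10 of its limma adjusted p (y axis); the dashed line is an adjusted p of 0.05 and colours mark the members of 4 gene lists. Members of the NF-kB and B-lineage lists lie mostly to the left and those of the erythroid and cell division lists to the right.

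NF-kB is a transcription factor that inhibitor proteins hold in the cytoplasm until a cytokine or a bacterial product releases it. It then switches on cytokines, enzymes and its own inhibitors. A large group that fell from 14 to 18 months was of this kind. Of 37 measured NF-kB target and cytokine genes, 25 fell, 1 rose and 11 did not pass the test, with a median change of -0.91. The mean level of the list was 8.73 to 9.05 on the 14-month arrays and 7.82 to 8.09 on the 18-month arrays. The list holds genes chosen as known NF-kB targets. Like the other lists, it was drawn up with earlier results of these data known. Its share of fallen genes is therefore a description and not independent support.

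Among its secreted factors, tumor necrosis factor (Tnf) read 10.76, 10.52 and 10.90 at 14 months and 8.71, 9.19 and 8.89 at 18 months. Every 14-month array was above every 18-month array, and the gene was 3.48-fold lower at 18 months (log2 change -1.80 ± 0.19, SE, adjusted p = 1.04e-05). Csf1, the growth factor that macrophages and osteoclasts need, read 9.42, 9.13 and 9.73 at 14 months and 6.80, 7.85 and 7.63 at 18 months. It was 4-fold lower, with no overlap of the ages (-2.001 ± 0.22, adjusted p = 1.55e-05). Interleukin 1 beta (Il1b) read 11.80, 12.02 and 12.11 at 14 months and 11.06, 10.90 and 10.92 at 18 months, a change of -1.02 ± 0.17 (adjusted p = 6.16e-04). The neutrophil-attracting chemokine Cxcl2 fell by 1.36 ± 0.23 (adjusted p = 5.58e-04) and leukemia inhibitory factor (Lif) by 0.96 ± 0.16 (adjusted p = 5.66e-04). Oncostatin M (Osm), a cytokine of the interleukin 6 family, fell by 0.82 ± 0.21 (adjusted p = 0.0138), a call lost without the 14-month replicate 2 (adjusted p = 0.0676), the 14-month replicate 3 (0.0604) or the 18-month replicate 3 (0.0533). Interleukin 6 (Il6) itself read 6.32, 7.01 and 7.44 at 14 months and 6.53, 6.88 and 7.80 at 18 months, and its change of 0.15 ± 0.29 did not pass the test (adjusted p = 0.841). The 1 gene of the list that rose, the monocyte-attracting chemokine Ccl7, changed by 0.58 ± 0.15 (adjusted p = 0.0121). Its call was lost without the 14-month replicate 1 (0.06) or without the 18-month replicate 2 (0.0658) or 3 (0.0624).

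The feedback inhibitors of the pathway fell with the cytokines. Nfkbia, the inhibitor that binds NF-kB in the cytoplasm, read 11.87, 11.84 and 12.15 at 14 months and 10.72, 10.60 and 10.84 at 18 months, 2.35-fold lower (-1.23 ± 0.13, adjusted p = 1.44e-05). Tnfaip3, the ubiquitin-editing enzyme A20 that shuts the signal off, read 11.69, 11.60 and 11.77 at 14 months and 9.85, 10.14 and 10.17 at 18 months (-1.63 ± 0.16, adjusted p = 9.28e-06). Nfkbid, a nuclear inhibitor-like protein that was not in the list, was among the 15 largest falls of all genes, with 10.75, 10.60 and 10.83 at 14 months and 8.71, 8.84 and 8.89 at 18 months, a change of -1.92 ± 0.16 (adjusted p = 1.17e-06). The signalling adaptor Traf1 fell by 1.50 ± 0.16 (adjusted p = 1.08e-05). In all 4 genes the arrays of the ages were at least 1 unit apart in their means and did not overlap.

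Among enzymes, receptors and transporters, prostaglandin synthase 2 (Ptgs2), the inducible cyclooxygenase, read 11.89, 11.77 and 11.77 at 14 months and 9.92, 10.37 and 10.40 at 18 months, a change of -1.58 ± 0.19 (adjusted p = 3.83e-05). Hcar2, the nicotinic acid and hydroxybutyrate receptor that restrains lipolysis in fat cells and is also made by neutrophils and macrophages, read 10.38, 10.64 and 11.08 at 14 months and 8.93, 9.07 and 8.94 at 18 months (-1.72 ± 0.17, adjusted p = 8.60e-06). Outside the list, the glucose transporter family member Slc2a6 read 10.49, 10.43 and 10.60 at 14 months and 8.34, 8.24 and 8.25 at 18 months, 4.69-fold lower, with the smallest adjusted p of all named genes (-2.23 ± 0.14, adjusted p = 1.78e-07). The immune checkpoint ligand Cd274 (PD-L1), also outside it, fell by 1.84 ± 0.15 (adjusted p = 7.80e-07). These 4 genes were high on every 14-month array and low on every 18-month array.

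The promoters of the fallen list members were searched for the 10-base NF-kB consensus on both strands, in the RefSeq windows of 250 bases before to 50 bases after a start. Of their 23 windows, which belong to 18 genes, 12 windows of 10 genes hold a match, or 52.2%, against 8.46% of all 32851 windows. Known targets were put in the list, so this share describes the list and not the age change. The promoters of 3 fallen members with the smallest adjusted p among those with a match are given with the matches in capitals, from build GRCm38.p6, 5′ to 3′ on the strand of the gene, which is the minus strand for all 3.
Tnfaip3, chr10:19015361-19015660: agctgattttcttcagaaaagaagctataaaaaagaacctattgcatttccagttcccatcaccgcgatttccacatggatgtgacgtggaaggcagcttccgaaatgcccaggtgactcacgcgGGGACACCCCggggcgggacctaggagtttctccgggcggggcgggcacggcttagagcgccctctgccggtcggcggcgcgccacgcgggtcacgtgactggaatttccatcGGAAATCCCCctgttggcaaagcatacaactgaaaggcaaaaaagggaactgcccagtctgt
Nfkbia, chr12:55492598-55492897: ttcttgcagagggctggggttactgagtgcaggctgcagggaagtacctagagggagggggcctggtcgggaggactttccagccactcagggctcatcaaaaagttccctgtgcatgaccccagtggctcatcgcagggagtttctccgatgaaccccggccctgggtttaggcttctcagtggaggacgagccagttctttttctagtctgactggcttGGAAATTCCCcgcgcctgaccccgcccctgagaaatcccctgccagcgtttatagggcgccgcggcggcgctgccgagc
Csf1, chr3:107760420-107760719: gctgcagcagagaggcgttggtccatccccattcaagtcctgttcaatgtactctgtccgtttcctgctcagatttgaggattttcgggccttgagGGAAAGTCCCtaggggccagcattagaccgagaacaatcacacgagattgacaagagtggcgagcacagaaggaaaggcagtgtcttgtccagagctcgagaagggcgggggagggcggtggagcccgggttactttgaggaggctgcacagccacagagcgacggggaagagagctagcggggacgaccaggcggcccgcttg
The Tnfaip3 window holds 2 matches, the first beginning at -125 counted from the start, and the other windows hold 1 each, at -29 in Nfkbia and -154 in Csf1. A match of letters does not show that the factor binds there.

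Immediate early genes are switched on within minutes of a stimulus or of handling, with no new protein needed, and many code for transcription factors. Of 33 measured, 23 fell, none rose and 10 did not pass the test (limma, median change -0.86). The mean level was 9.62 to 9.86 at 14 months and 8.76 to 8.88 at 18 months. The stress-induced repressor Atf3 read 11.09, 11.31 and 11.33 at 14 months and 8.93, 9.43 and 9.42 at 18 months, 3.95-fold lower (-1.98 ± 0.23, adjusted p = 2.43e-05). The AP-1 subunit Jun read 10.96, 10.83 and 11.01 at 14 months and 9.61, 9.81 and 9.94 at 18 months (-1.15 ± 0.20, adjusted p = 7.79e-04). Dusp6, a phosphatase that switches off ERK kinase, read 10.10, 10.10 and 10.12 at 14 months and 8.79, 8.68 and 8.66 at 18 months, and its arrays lay within 0.2 of each other at either age (-1.40 ± 0.19, adjusted p = 7.94e-05). Ier5 changed by -1.24 ± 0.22 and the zinc finger factor Egr2 by -1.36 ± 0.25 (adjusted p = 8.27e-04 and 0.00126). The number of immediate early genes that fell was 13 without the 14-month replicate 3, 15 without the 18-month replicate 1 and 14 when the bone marrow arrays were fitted alone, and none rose in any of these.

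Further large falls were of genes in no list. Plk2, a stress-induced kinase, read 10.61, 10.47 and 10.88 at 14 months and 8.12, 8.55 and 8.57 at 18 months, 4.72-fold lower (-2.24 ± 0.31, adjusted p = 1.29e-04). Pmaip1 (Noxa), a death-promoting member of the BCL2 family, read 9.43, 10.19 and 10.21 at 14 months and 7.82, 7.67 and 7.69 at 18 months (-2.21 ± 0.37, adjusted p = 5.14e-04). Gadd45b, induced by DNA damage and by cytokines, read 11.54, 11.42 and 11.59 at 14 months and 9.63, 9.87 and 9.74 at 18 months (-1.77 ± 0.19, adjusted p = 1.22e-05). Arrdc3, an arrestin-like protein that regulates adrenergic receptors, was 4.02-fold lower (-2.01 ± 0.21, adjusted p = 1.31e-05). The potassium channel Kcnj2, the protease Asprv1 and the glycosyltransferase B3gnt5 complete the protein-coding members of the 15 largest falls outside the lists, with -1.85, -1.92 and -1.80 (adjusted p = 1.67e-05, 2.48e-04 and 0.00376). A pair of short RNAs, the 5S ribosomal RNA gene n-R5s136 and the Y RNA Rny3, was also among them at -2.08 ± 0.52 and -2.004 ± 0.44 (adjusted p = 0.0106 and 0.00448). The n-R5s136 call was lost without the 18-month replicate 3 (adjusted p = 0.0678). Of 29 measured unfolded protein response genes 10 fell and 1 rose. The pro-apoptotic factor Ddit3 fell by 1.39 ± 0.19 and the glutathione-degrading enzyme Chac1 changed by -1.05 ± 0.16 (adjusted p = 8.35e-05 and 2.97e-04), and the 1 that rose was asparagine synthetase (Asns, 0.90 ± 0.18, adjusted p = 0.00248).

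**Figure D2:**
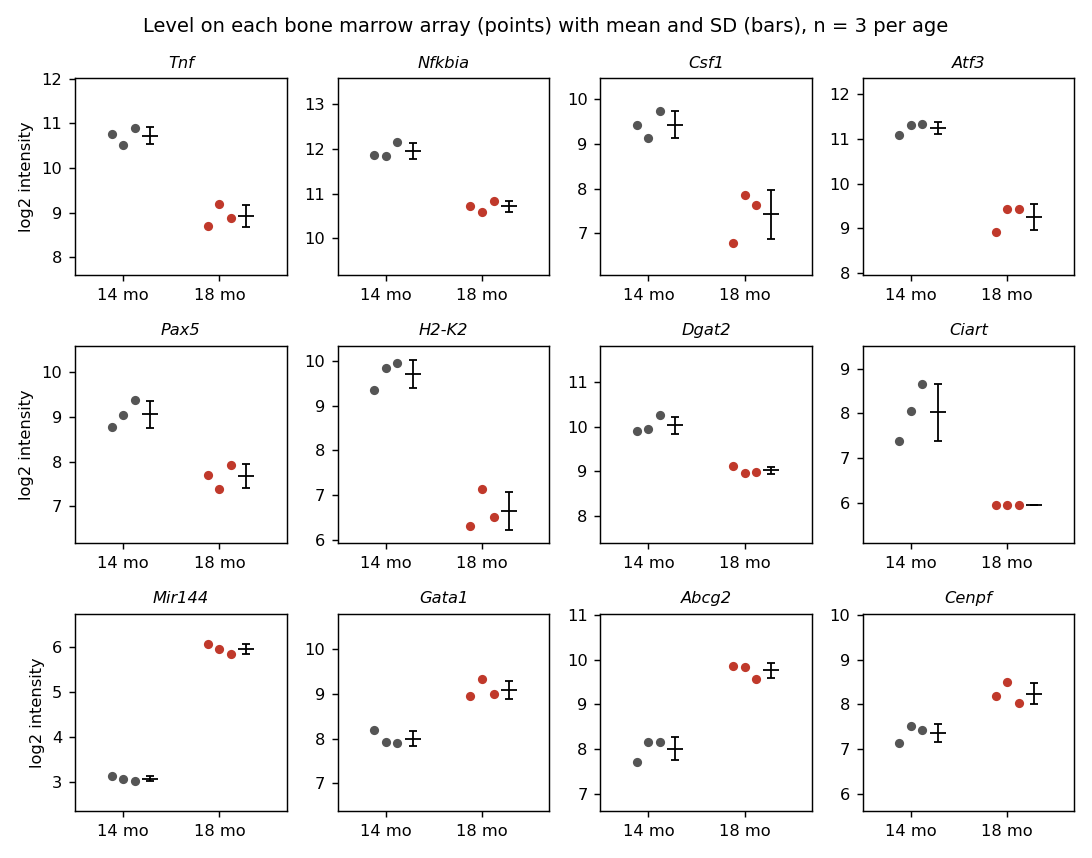
Level (y axis, log2 intensity, each panel spanning the same number of units) of 12 genes on the 3 arrays of each age (points) with the mean and SD (bars). The ages do not overlap in any panel, with the first 8 genes lower and the last 4 higher at 18 months.

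Markers of B cells formed another group that fell, from their first stages to antibody-secreting cells. Of 21 B-lineage progenitor markers 17 fell and none rose, with a median change of -0.96. Of 16 mature B cell markers 13 fell and none rose (median -0.86), and of 12 plasma cell markers 7 fell and none rose (median -0.68, 4 without the 14-month replicate 1). Pax5, the factor that commits a cell to the B lineage, read 8.77, 9.04 and 9.37 at 14 months and 7.71, 7.39 and 7.92 at 18 months, 2.62-fold lower (-1.39 ± 0.19, adjusted p = 9.52e-05). Dntt, the enzyme that adds bases at antigen receptor joints, read 7.76, 7.93 and 8.28 at 14 months and 6.51, 7.01 and 6.61 at 18 months (-1.28 ± 0.17, adjusted p = 6.43e-05). Both were higher on all 14-month arrays. The ectoenzyme Bst1 and the factor Sox4, which early B cells need, fell by 1.47 ± 0.24 and 1.31 ± 0.23 (adjusted p = 4.68e-04 and 7.61e-04).

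Genes of later stages fell too. Cd79a, a signalling chain of the B cell receptor, read 10.56, 10.34 and 10.63 at 14 months and 9.03, 8.75 and 9.34 at 18 months, 2.77-fold lower (-1.47 ± 0.26, adjusted p = 0.00101). The low-affinity IgE receptor Fcer2a read 7.41, 7.27 and 7.83 at 14 months and 5.62, 6.01 and 5.93 at 18 months (-1.65 ± 0.22, adjusted p = 8.95e-05), and the complement receptor Cr2 read 7.45, 6.74 and 7.68 at 14 months and 5.88, 5.73 and 5.34 at 18 months (-1.64 ± 0.25, adjusted p = 2.48e-04). The inhibitory receptor Cd22 fell by 1.22 ± 0.19 (adjusted p = 3.50e-04). Prdm1 and Irf4, which drive plasma cell formation, fell by 1.51 ± 0.16 and 1.51 ± 0.19 (adjusted p = 1.08e-05 and 6.02e-05).

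The 14-month arrays also stood apart from the 6-month marrow arrays in these genes. The mean level of the B-lineage progenitor list was 7.43 to 7.60 at 6 months, 8.25 to 8.45 at 14 months and 7.20 to 7.53 at 18 months. For the mature B cell list the ranges were 7.51 to 7.82, 8.62 to 9.09 and 7.80 to 7.85. Pax5 read 7.86 ± 0.26 (SD, n = 3) at 6 months and Cd79a 8.99 ± 0.11, both near their 18-month values. In both lists the 14-month arrays were the highest, and the ranges of the 6- and 18-month arrays overlapped. The NF-kB list had the same order for 14 months, at 8.28 to 8.42, 8.73 to 9.05 and 7.82 to 8.09, with no overlap of the 3 ages. The 6-month values are given as levels only, since no test of them was part of this comparison. The paper proposes that genes most affected at 14 months may relate to body weight and fat mass. It reports that weight was highest at 14 months and lower at 18 months. The part of weight in the changes given here was not tested.

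**Figure D3:**
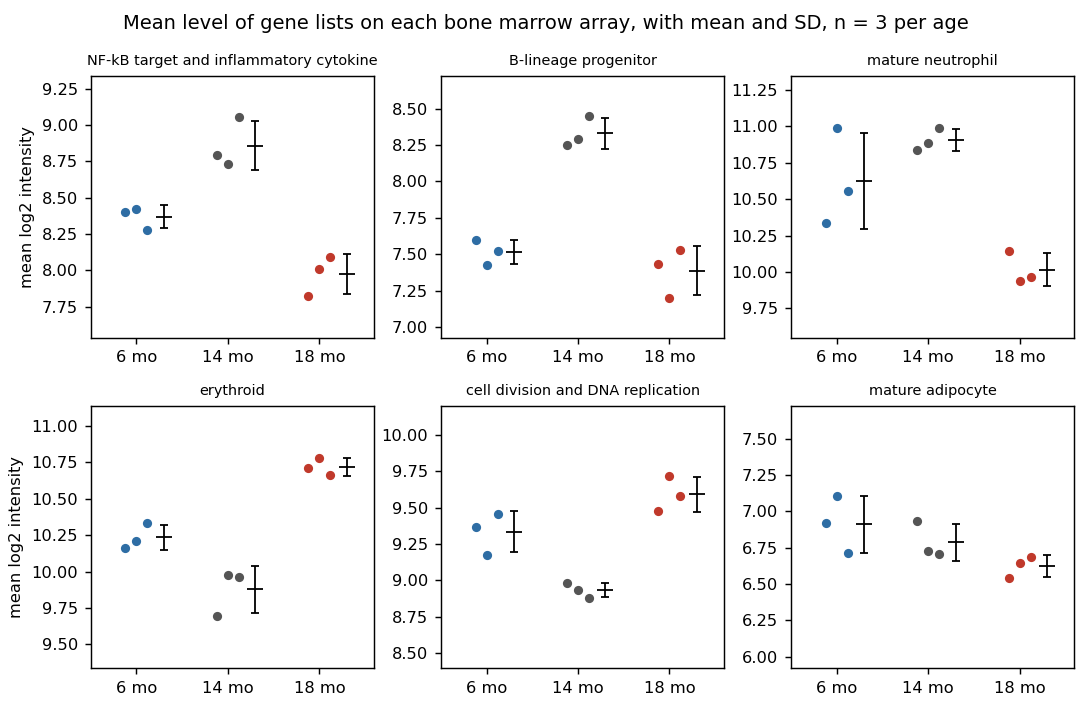
Mean log2 intensity (y axis) of the measured members of 6 gene lists on each of the 9 bone marrow arrays (points), with the mean and SD over 3 arrays at 6, 14 and 18 months (bars). The 14-month arrays are the highest in the NF-kB and B-lineage progenitor panels and the lowest in the erythroid and cell division panels.

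Antigen presentation and interferon genes fell in part. Of 10 MHC class II presentation genes 6 fell and none rose (median -0.61), and 3 fell without the 14-month replicate 3 or without the 18-month replicate 1. The class II transactivator Ciita read 7.01, 6.90 and 7.17 at 14 months and 6.07, 6.17 and 6.32 at 18 months (-0.84 ± 0.15, adjusted p = 0.00116). The invariant chain Cd74, which chaperones class II molecules, read 11.61, 11.54 and 11.83 at 14 months and 10.78, 11.10 and 10.96 at 18 months (-0.71 ± 0.13, adjusted p = 0.00136). Of 30 interferon-stimulated genes 12 fell and none rose (median -0.41), 7 without the 14-month replicate 2 or without the 18-month replicate 1. The RNA sensor Ddx58 changed by -1.001 ± 0.14, the membrane protein Ifitm3 by -0.78 ± 0.11 and the antiviral GTPase Mx1 by -0.87 ± 0.14 (adjusted p = 1.52e-04, 1.62e-04 and 4.74e-04).

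The largest fall of any gene was that of H2-K2, an MHC class I gene. It read 9.34, 9.83 and 9.95 at 14 months and 6.32, 7.13 and 6.50 at 18 months, 8.32-fold lower (-3.06 ± 0.23, adjusted p = 6.98e-07). Class I genes are near-identical copies, so a probe set named for one can catch others, and the size of this fall is uncertain as that of 1 gene. Of 9 probe sets that name genes of the class I family, H2-K2 included, 8 fell and none rose, with changes of -3.06 to -0.04. H2-Q10, another of them, read 7.15, 7.22 and 7.22 at 14 months and 5.93, 6.09 and 5.84 at 18 months (-1.24 ± 0.16, adjusted p = 6.58e-05).

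Of 23 neutrophil granule genes, which are made in precursors, 1 fell and none rose (median -0.16), 4 fell when the bone marrow arrays were fitted alone, and 7 fell and 1 rose when only the 6 compared arrays were. Their mean level was 11.13 to 11.33 at 14 months and 11.03 to 11.06 at 18 months, with no overlap, and Mpo did not pass the test (0.15 ± 0.58, adjusted p = 0.926). The spread in the fit of all arrays includes the 6-month epididymal replicate 1, which stood apart in this list. Of 11 mature neutrophil markers 5 fell and none rose (median -0.85). Csf3r, the receptor for granulocyte colony-stimulating factor, read 11.21, 11.31 and 11.50 at 14 months and 9.66, 9.67 and 9.42 at 18 months, 3.38-fold lower (-1.76 ± 0.29, adjusted p = 4.56e-04). The lectin receptors Clec4e and Clec4d fell by 1.52 ± 0.23 and 1.27 ± 0.23 (adjusted p = 2.56e-04 and 0.00102). The mature neutrophil list had a mean level of 10.84 to 10.99 at 14 months and 9.94 to 10.14 at 18 months, and it shares Il1b with the NF-kB list. Mature neutrophils also express Il1b and Cxcl2, and the part of these cells in the fall of the NF-kB list was not tested.

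Other blood and marrow cell markers mostly did not pass the test. Of 23 macrophage and monocyte markers 3 fell and 1 rose (median -0.22), and 1 fell without the 18-month replicate 1 or 3. Cd68, a lysosomal protein of macrophages, changed by -0.82 ± 0.19 (adjusted p = 0.00763, and 0.0501 without the 18-month replicate 3). Vsig4, a complement receptor of resident macrophages, read 6.93, 6.26 and 5.52 at 14 months and 7.05, 8.30 and 7.02 at 18 months (1.22 ± 0.39, adjusted p = 0.0477). Its call was lost without the 14-month replicate 2 (0.108), the 14-month replicate 3 (0.245) or the 18-month replicate 2 (0.262). Of 24 T and NK cell markers 5 fell and none rose (3 fell without the 14-month replicate 2), and of 15 dendritic cell markers 3 fell and none rose. Of 26 stromal niche markers 2 fell and none rose, of 16 osteoblast-lineage markers 1 fell and none rose, of 26 fibroblast and matrix genes 2 fell and none rose, and of 23 endothelial markers 3 fell and none rose. Without the 14-month replicate 1 these lists had 4, 1, 2 and 2 that rose and 1, 1, 2 and 1 that fell, and the median change turned from -0.13 to 0.10 in the stromal niche list and from -0.07 to 0.09 in the fibroblast and matrix list, so no direction is given for them. Without the 18-month replicate 1, 1 stromal niche marker fell, and 1 endothelial marker fell without the 14-month replicate 2, the 18-month replicate 3 or any 1 of the 14-month or 18-month epididymal arrays, and none with the bone marrow arrays alone or with the arrays set to their ribosomal protein genes. None of 21 skeletal muscle genes passed the test.

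**Figure D4:**
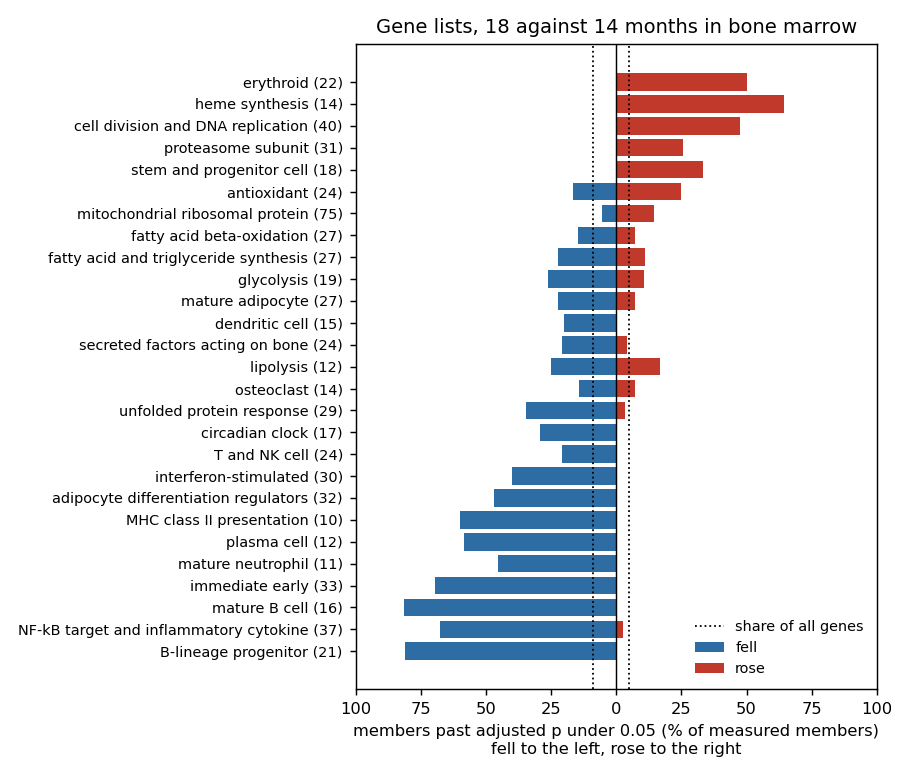
Percent of the measured members of each gene list (y axis, number measured in parentheses) that fell (left bars) or rose (right bars) from 14 to 18 months at an adjusted p under 0.05, for the lists with at least 20% of members called. The dotted lines mark the shares over all genes, 8.72% fallen and 4.91% risen.

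Genes of red cell precursors were among those that rose. Red cell formation is driven by the factor Gata1 and takes a dividing precursor to a cell filled with globin and heme. Of 22 erythroid genes 11 rose, none fell and 11 did not pass the test, with a median change of 0.87 and every member's estimate above 0. When the bone marrow arrays were fitted alone 19 rose, and when only the 6 compared arrays were fitted 21 rose. The mean level was 9.69 to 9.98 at 14 months and 10.66 to 10.78 at 18 months, with 10.16 to 10.33 at 6 months between them. Gata1 read 8.19, 7.92 and 7.90 at 14 months and 8.94, 9.33 and 8.997 at 18 months, 2.13-fold higher (1.09 ± 0.15, adjusted p = 9.86e-05). The transferrin receptor Tfrc, which takes up iron, read 11.30, 11.17 and 11.22 at 14 months and 12.21, 12.43 and 12.27 at 18 months (1.08 ± 0.25, adjusted p = 0.00654). The water channel Aqp1, also made by endothelium, read 10.38, 10.42 and 10.41 at 14 months and 11.46, 11.38 and 11.48 at 18 months (1.04 ± 0.11, adjusted p = 1.08e-05). All 18-month arrays were above all 14-month arrays in these 3 genes. The erythroid nuclear protein Hemgn and the membrane skeleton protein beta-spectrin (Sptb) rose by 1.01 ± 0.19 and 0.95 ± 0.14 (adjusted p = 0.00127 and 1.73e-04).

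Of 14 heme synthesis genes 9 rose and none fell (median 0.76). The mitochondrial porphyrin transporter Abcb6 read 7.47, 7.47 and 7.35 at 14 months and 8.44, 8.66 and 8.57 at 18 months (1.13 ± 0.15, adjusted p = 8.04e-05). Uros and Urod, which act one after the other on the porphyrin ring, rose by 0.96 ± 0.16 and 0.89 ± 0.16 (adjusted p = 4.56e-04 and 8.18e-04). Among the 15 largest rises, the theta globin gene Hbq1a read 4.59, 5.19 and 4.78 at 14 months and 6.86, 6.49 and 6.63 at 18 months, 3.51-fold higher (1.81 ± 0.21, adjusted p = 2.95e-05), and Xk, a red cell membrane protein bound to the Kell antigen, rose by 1.42 ± 0.19 (adjusted p = 9.82e-05). The 4 probe sets of the adult alpha- and beta-globin genes, which list several globin genes each, read 13.7 to 14.4 on all 6 arrays, near the highest value of the file (14.6), and their changes of -0.07 to 0.11 did not pass the test. The AGATAA motif that Gata1 recognises was found on either strand in 2 of 11 promoter windows of the risen erythroid genes, or 18.2%, against 11.2% of all windows, and in 1 of 10 windows of the risen heme synthesis genes, or 10.0%.

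Few miRNA loci passed the test. Their probe sets measure RNA from the locus, the precursor or its primary transcript, and not the processed strands. Of 300 measured loci, of which 271 matched RefSeq, 3 rose and 12 fell. Both are smaller shares than over all genes, where 4.91% rose and 8.72% fell. All 3 that rose, and the 3 that fell by more than 1 on the log2 scale, are given with Mir155, which NF-kB is known to induce. Their mature RefSeq sequences (build GRCm38.p6) have the seed, bases 2 to 8, in capitals.
mmu-miR-144-3p: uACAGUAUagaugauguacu
mmu-miR-451a: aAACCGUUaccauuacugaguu
mmu-miR-687: cUAUCCUGgaaugcagcaauga
mmu-miR-146a-5p: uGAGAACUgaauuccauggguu
mmu-miR-29a-3p: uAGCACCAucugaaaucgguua
mmu-miR-142a-3p: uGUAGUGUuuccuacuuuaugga
mmu-miR-155-5p: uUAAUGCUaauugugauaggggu
No 2 of these share a seed. Mir144 had the largest log2 change of the genes that rose, with 3.13, 3.05 and 3.01 at 14 months and 6.09, 5.95 and 5.86 at 18 months (2.90 ± 0.21, adjusted p = 6.98e-07). Its 14-month values lie below the median of the olfactory receptor genes (3.51), a level taken here as near background, so the size of its rise is not settled and no fold is given. Mir451a, whose hairpin lies 99 bases from that of Mir144 and which Gata1 switches on with it in red cell precursors, read 4.29, 4.65 and 4.27 at 14 months and 5.39, 6.25 and 5.45 at 18 months (1.29 ± 0.21, adjusted p = 3.99e-04). Mir687 read 4.75, 4.71 and 4.83 at 14 months and 6.15, 6.18 and 6.04 at 18 months (1.36 ± 0.18, adjusted p = 6.58e-05).

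Among the loci that fell, Mir146, which holds miR-146a, a feedback inhibitor of the signals that activate NF-kB, read 4.37, 4.61 and 5.39 at 14 months and 3.19, 3.07 and 3.18 at 18 months (-1.64 ± 0.25, adjusted p = 2.18e-04). Mir29a changed by -1.17 ± 0.24 (adjusted p = 0.00273). Mir142, a locus of blood cells, read 8.45, 8.57 and 8.49 at 14 months and 7.32, 7.47 and 7.57 at 18 months (-1.05 ± 0.21, adjusted p = 0.00288). Mir155 read 6.65, 6.87 and 7.08 at 14 months and 6.18, 5.75 and 6.27 at 18 months (-0.80 ± 0.17, adjusted p = 0.00402). In each of these loci every 18-month array was below every 14-month array, and the 18-month values of Mir146 lay below that olfactory receptor median.

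Cell division genes rose in part. Of 40 measured, 19 rose and none fell, with a median change of 0.67 and every estimate above 0. The count was 10 without the 14-month replicate 3, 12 without the 14-month replicate 2 and 11 without the 18-month replicate 2, and it was 34 when only the 6 compared arrays were fitted, with none falling. Cenpf, a protein of the kinetochore, read 7.14, 7.51 and 7.42 at 14 months and 8.19, 8.49 and 8.03 at 18 months (0.88 ± 0.16, adjusted p = 0.00101). The mitotic kinase Aurka read 8.48, 8.22 and 8.42 at 14 months and 9.05, 9.35 and 9.30 at 18 months (0.86 ± 0.15, adjusted p = 8.60e-04). The replication factor Gins1 read 6.94, 6.75 and 6.94 at 14 months and 7.83, 7.92 and 7.85 at 18 months (0.99 ± 0.18, adjusted p = 0.00101). The ages did not overlap in these 3 genes. Birc5 (survivin) rose by 0.66 ± 0.13 and the spindle protein Ckap2, one of the 15 largest rises, by 1.35 ± 0.24 (adjusted p = 0.0022 and 0.00104). Mki67, the usual marker of dividing cells, read 11.04, 11.03 and 11.03 at 14 months and 11.54, 12.08 and 11.80 at 18 months, and its change of 0.77 ± 0.39 did not pass the test (adjusted p = 0.24), whereas a fit of the 6 arrays alone gave 0.00321.

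Progenitor, platelet and eosinophil genes were also examined. Of 18 stem and progenitor cell genes 6 rose and none fell (median 0.29), with 2 that rose without the 14-month replicate 2 or 3 or the 18-month replicate 2, and 3 without the 18-month replicate 3. Gfi1b, a repressor that red cell and platelet precursors need, rose by 0.77 ± 0.14 (adjusted p = 0.00119). None of 14 megakaryocyte and platelet genes passed the test, with a median change of 0.86, but this count depended on the arrays fitted: without the 14-month replicate 1, 11 of 14 rose (median 1.24). The list's mean level was 9.29, 8.29 and 8.23 on the 14-month arrays and 9.19, 9.45 and 9.56 on the 18-month arrays, so replicate 1 at 14 months lay among the 18-month arrays. With array weights, or without the 6-month marrow arrays in the fit, 11 rose too, and 6 rose when only the 6 compared arrays were fitted. The serotonin transporter Slc6a4 and the adhesion receptor Cd226, which platelets carry, read 8.12, 6.87 and 6.71 at 14 months and 8.20, 8.64 and 8.86 at 18 months, and 6.58, 5.78 and 5.87 at 14 months and 7.12, 7.74 and 7.35 at 18 months. Their changes of 1.33 ± 0.36 and 1.32 ± 0.32 passed the test (adjusted p = 0.0186 and 0.00899). The Cd226 call was lost without the 18-month replicate 2 (0.0514), and the Slc6a4 call without the 14-month replicate 2 (0.0897) or 3 (0.111) or the 18-month replicate 2 (0.0621) or 3 (0.0812). The protease inhibitor Ctla2a changed by 1.34 ± 0.36 (adjusted p = 0.0163), a call lost without the 14-month replicate 2 (0.0661) or 3 (0.0788). Of 18 eosinophil, basophil and mast cell genes 3 rose and none fell, 1 rose without the 14-month replicate 3, and 1 rose and 1 fell without the 18-month replicate 1. Prg3, a granule protein of eosinophils, read 7.13, 7.26 and 7.05 at 14 months and 8.05, 8.61 and 8.49 at 18 months (1.24 ± 0.19, adjusted p = 2.49e-04).

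Other large rises were of genes in no list. Abcg2, a membrane transporter that exports porphyrins and drugs and is made by stem cells, red cell precursors and endothelium, read 7.71, 8.15 and 8.16 at 14 months and 9.86, 9.84 and 9.57 at 18 months, 3.36-fold higher (1.75 ± 0.25, adjusted p = 1.39e-04). Tlcd4 read 6.67, 6.56 and 6.61 at 14 months and 8.51, 8.59 and 8.02 at 18 months (1.76 ± 0.20, adjusted p = 2.30e-05). The tetraspanin Tspan8 read 8.05, 8.23 and 8.42 at 14 months and 10.20, 9.71 and 9.91 at 18 months (1.71 ± 0.41, adjusted p = 0.008). No array of one age reached the other in these 3 genes. Olfr67, named for an olfactory receptor, rose by 1.53 ± 0.12 (adjusted p = 7.80e-07). The mitochondrial carrier Slc25a21, the carboxylesterase Ces2g and Pheta2 rose by 1.47 ± 0.20, 1.44 ± 0.25 and 1.42 ± 0.21 (adjusted p = 9.67e-05, 8.46e-04 and 2.47e-04). Of 24 genes listed for factors acting on bone 5 fell and 1 rose, and 3 fell without the 14-month replicate 2 or 3 or the 18-month replicate 3. The 1 that rose was Abcb4, a phospholipid transporter best known from bile, which was 2.31-fold higher, with 7.94, 8.18 and 8.07 at 14 months and 9.28, 9.35 and 9.20 at 18 months (1.21 ± 0.15, adjusted p = 4.62e-05).

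Fat cell genes changed little as a list and in both directions. Of 27 mature adipocyte markers 2 rose and 6 fell, with a median change of -0.11. The 6 that fell were 3 with the arrays set to their ribosomal protein genes, and leaving out any array left 0 or 1 that rose. Several genes of triglyceride storage fell, some of them outside the list. Dgat2, which makes triglyceride from diglyceride, read 9.89, 9.94 and 10.25 at 14 months and 9.12, 8.97 and 8.99 at 18 months, 2-fold lower (-1.001 ± 0.13, adjusted p = 6.07e-05). Gpam, which takes the entry step of glycerolipid synthesis in mitochondria, read 8.04, 7.90 and 8.27 at 14 months and 7.06, 6.72 and 7.20 at 18 months (-1.08 ± 0.17, adjusted p = 3.87e-04). Its microsomal counterpart Gpat3 fell by 0.96 ± 0.21 and the desaturase Scd1 by 0.70 ± 0.13 (adjusted p = 0.00507 and 0.0018). Plin2, which coats small lipid droplets in most cell types, read 10.62, 10.23 and 10.47 at 14 months and 9.37, 9.64 and 9.21 at 18 months (-1.03 ± 0.16, adjusted p = 3.09e-04). The fatty acid transport protein Slc27a4 fell by 0.74 ± 0.17 (adjusted p = 0.00653, and 0.0505 with the arrays set to their ribosomal protein genes). Of 27 fatty acid and triglyceride synthesis genes 6 fell and 3 rose, and 1 rose without the 14-month or the 18-month replicate 2.

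Of 12 lipolysis genes 3 fell, 2 rose and 7 did not pass the test, with 1 that rose without the 14-month replicate 3. Those that fell were Hcar2 and a pair of lipases that release fatty acids. Hormone-sensitive lipase (Lipe) read 8.04, 7.87 and 7.82 at 14 months and 7.39, 7.25 and 7.32 at 18 months (-0.59 ± 0.11, adjusted p = 9.81e-04). Adipose triglyceride lipase (Pnpla2) read 9.33, 9.26 and 9.31 at 14 months and 8.73, 8.62 and 8.81 at 18 months (-0.58 ± 0.11, adjusted p = 0.00226, and 0.0608 with the arrays set to their ribosomal protein genes). The 2 that rose were monoglyceride lipase (Mgll, 0.43 ± 0.11, adjusted p = 0.0119, and 0.058 without the 14-month replicate 3) and a regulatory subunit of protein kinase A (Prkar2b, 0.70 ± 0.13, adjusted p = 9.88e-04). The fatty acid binding protein Fabp4 read 7.97, 7.41 and 7.85 at 14 months and 7.22, 7.28 and 6.50 at 18 months (-0.74 ± 0.22, adjusted p = 0.034), a call lost without the 14-month replicate 1 (0.138) or 3 (0.118) or the 18-month replicate 3 (0.202). The mitochondrial acetyl-CoA synthetase Acss1 read 8.10, 8.19 and 7.97 at 14 months and 8.61, 8.71 and 8.68 at 18 months (0.58 ± 0.12, adjusted p = 0.00364), and it rose. Of 27 fatty acid beta-oxidation genes 4 fell and 2 rose, 1 fell without the 14-month or 18-month replicate 1 or 2, none fell with the arrays set to their ribosomal protein genes, and 7 rose without the 6-month marrow arrays in the fit. The enzyme Eci2 was 1 of the 2, at 0.78 ± 0.16 (adjusted p = 0.00304). The desaturase Fads2 changed by 0.72 ± 0.18 (adjusted p = 0.0103), a call lost without the 14-month replicate 2 (0.0607) or 3 (0.0562) or the 18-month replicate 2 (0.0577). The fatty acid transporter Cd36 changed by 0.43 ± 0.13 (adjusted p = 0.028), a call lost without the 14-month replicate 1 (0.123) or 3 (0.0622) or the 18-month replicate 1 (0.0701) or 2 (0.106). These genes are also expressed by macrophages and other blood cells, at levels these arrays do not separate from those of fat cells.

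Regulators of fat cell differentiation fell in part. Of 32 measured, 15 fell (46.9%) and none rose, with a median change of -0.45, and some of them, such as Egr2 and Lif, also stand in the immediate early or NF-kB list. Cebpb, which acts early in differentiation and in inflamed cells, read 9.997, 10.38 and 10.59 at 14 months and 9.28, 8.98 and 9.05 at 18 months, 2.33-fold lower (-1.22 ± 0.24, adjusted p = 0.00187). The insulin receptor substrate Irs2 read 8.98, 9.05 and 9.23 at 14 months and 7.94, 7.77 and 8.13 at 18 months (-1.14 ± 0.17, adjusted p = 2.46e-04). Ebf1, which both fat cells and B cells need, read 9.54, 9.42 and 9.76 at 14 months and 8.51, 8.19 and 8.96 at 18 months (-1.01 ± 0.18, adjusted p = 8.89e-04). Every 18-month array was below every 14-month array in these 3 genes. The leptin receptor Lepr, a mark of the marrow stromal cells that can become fat cells, read 7.88, 6.91 and 7.67 at 14 months and 7.86, 8.12 and 7.92 at 18 months, and its change of 0.48 ± 0.18 did not pass the test (adjusted p = 0.0935), whereas it was 0.0199 without the 14-month replicate 1. Rgs2, which dampens G-protein signals, changed by -0.47 ± 0.25 and did not pass the test (adjusted p = 0.282), whereas a fit of the 6 compared arrays alone gave 0.0367.

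The clock genes that fell were output and repressor genes. Of 17 circadian clock genes 5 fell and none rose (median -0.24). Ciart, a repressor of the clock, read 7.37, 8.04 and 8.64 at 14 months and 5.94, 5.95 and 5.96 at 18 months, 4.2-fold lower (-2.07 ± 0.25, adjusted p = 3.62e-05). Its 18-month arrays lay within 0.02 of each other, while the 14-month arrays spread over more than 1 unit. Per1 read 10.28, 10.39 and 10.69 at 14 months and 9.04, 9.05 and 9.004 at 18 months (-1.42 ± 0.17, adjusted p = 2.95e-05). The repressors Bhlhe41 and Bhlhe40 fell by 1.60 ± 0.19 and 0.999 ± 0.15, and Nfil3 by 0.79 ± 0.14 (adjusted p = 3.85e-05, 2.95e-04 and 0.00106). The E-box CACGTG, which the clock activators bind, reads the same on both strands and was found in 3 of 5 promoter windows of the fallen members, which belong to 4 genes, against 7.15% of all windows. Known clock genes were put in the list and the windows are few, so this share describes the list and not the age change. The windows of Per1 and Ciart, from build GRCm38.p6, show it in capitals, on the plus strand for Per1 and the minus strand for Ciart.
Per1, chr11:69098699-69098998: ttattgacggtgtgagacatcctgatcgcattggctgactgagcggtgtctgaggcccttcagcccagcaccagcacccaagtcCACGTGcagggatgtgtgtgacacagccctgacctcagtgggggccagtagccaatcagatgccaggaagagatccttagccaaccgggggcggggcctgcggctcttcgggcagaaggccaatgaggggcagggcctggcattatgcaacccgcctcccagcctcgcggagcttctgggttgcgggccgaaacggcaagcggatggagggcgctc
Ciart, chr3:95882179-95882478: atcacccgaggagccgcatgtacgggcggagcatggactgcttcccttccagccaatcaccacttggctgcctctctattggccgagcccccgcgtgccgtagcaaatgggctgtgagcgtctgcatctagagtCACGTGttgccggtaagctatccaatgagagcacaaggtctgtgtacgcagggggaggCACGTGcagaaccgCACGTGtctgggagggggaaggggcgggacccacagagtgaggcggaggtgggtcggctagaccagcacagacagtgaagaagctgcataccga
Per1 holds 1 match and Ciart 3, and a match of letters does not show that the activators bind there. The hour at which the mice were killed is not given in the sources used here.

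Of 31 proteasome subunits 8 rose, none fell and 23 did not pass the test (median 0.31), and 5 rose when the 14-month replicate 2 or 3 or the 18-month replicate 1 or 2 was left out. Psmd7 and Psmd1, of the regulatory lid and base, rose by 0.85 ± 0.12 and 0.81 ± 0.12 (adjusted p = 1.15e-04 and 2.26e-04). Of 24 antioxidant genes 6 rose and 4 fell, and 2 fell without the 14-month replicate 3 or the 18-month replicate 1 or 3. Nqo1, a quinone reductase, read 5.67, 5.62 and 5.99 at 14 months and 6.86, 7.09 and 6.68 at 18 months (1.12 ± 0.15, adjusted p = 9.25e-05). The peroxiredoxin Prdx2, abundant in red cells, rose by 0.82 ± 0.17 and the mitochondrial thioredoxin reductase Txnrd2 by 0.91 ± 0.16 (adjusted p = 0.00294 and 6.71e-04). Nfe2l2, the transcription factor that switches on Nqo1 and other antioxidant genes, fell by 0.88 ± 0.16, and glutathione reductase (Gsr) by 0.58 ± 0.11 (adjusted p = 9.63e-04 and 0.00181).

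In energy metabolism the counts depended on the arrays fitted. Of 75 mitochondrial ribosomal protein genes 11 rose and 4 fell, with Mrpl50 at 0.86 ± 0.16 (adjusted p = 0.00137), and 4 to 7 rose without the 14-month replicate 2 or 3 or the 18-month replicate 1 or 2. Of 38 complex I genes 4 rose and none fell, 0 or 1 rose without any array other than the 18-month replicate 3, 11 rose and 1 fell when only the 6 compared arrays were fitted, and 13 rose and 1 fell without the 6-month marrow arrays in the fit. Of 19 glycolysis genes 5 fell and 2 rose, with 3 that fell without the 14-month replicate 1. Pfkfb3, which makes the activator of phosphofructokinase and is induced in stimulated leukocytes, fell by 0.88 ± 0.16, and the muscle and red cell phosphofructokinase Pfkm rose by 0.90 ± 0.18 (adjusted p = 0.00105 and 0.00192).

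Epididymal adipocytes of the same ages allow each change in marrow to be set against that in another fat depot. The change in marrow differed from that in epididymal adipocytes in 3225 of 19938 genes (16.2%, limma interaction test, adjusted p under 0.05), in a fit that treats all arrays as independent, although marrow and epididymal cells were taken from the same mice. Over probe sets, 1813 had the higher change in marrow and 1886 the lower one, but 1177 and 4104 after each array was set to its median, 1600 and 2316 after repeated quantile normalization, and 1160 and 2041 after setting arrays to their ribosomal protein genes, so the balance of signs depended on the scaling. Of the 2717 genes that rose or fell in marrow, 1144 passed this test, and 277 of them rose in one cell type and fell in the other at an adjusted p under 0.05. Of all genes, 2421 rose (12.1%) and 2512 fell (12.6%) in epididymal adipocytes, and the epididymal counts of lists are to be read against these. In the immediate early list 21 of 33 members passed the test of the difference: 23 fell and none rose in marrow, while 1 fell and 15 rose in epididymal adipocytes. In the NF-kB list 21 of 37 members passed it, and in epididymal adipocytes 11 rose and 9 fell.

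Among genes that passed the test of the difference and whose 14- and 18-month arrays did not overlap in marrow, the 8 with the largest difference are given, and other genes differed by more. Gadd45b fell by 1.77 ± 0.19 in marrow and rose by 2.78 ± 0.19 in epididymal adipocytes, a difference of -4.55 ± 0.26 (adjusted p = 2.05e-09). Cxcl2 rose by 2.72 ± 0.23 and Hcar2 by 2.22 ± 0.17 in epididymal adipocytes, and the differences were -4.08 ± 0.32 and -3.93 ± 0.24 (adjusted p = 8.94e-08 and 4.19e-09). For the other 5 of these 8 genes the difference was positive. Vsig4 fell by 3.08 ± 0.39, Cd74 by 4.15 ± 0.13 and the class II beta chain H2-Eb1 by 3.91 ± 0.14 in epididymal adipocytes, and the differences were 4.29 ± 0.55, 3.43 ± 0.19 and 3.40 ± 0.20 (adjusted p = 2.59e-05, 2.05e-09 and 2.05e-09). In marrow H2-Eb1 changed by -0.51 ± 0.14 (adjusted p = 0.0206), a call lost without the 14-month replicate 3 (0.112) or the 18-month replicate 1 (0.0679) or 3 (0.0666). Pkhd1l1, a large membrane protein, read 7.44, 7.47 and 7.77 at 14 months and 8.77, 9.04 and 8.73 at 18 months in marrow (1.29 ± 0.14, adjusted p = 1.89e-05), and the difference was 3.47 ± 0.20 (adjusted p = 2.05e-09). For Abcg2 the difference was 3.39 ± 0.35 (adjusted p = 2.20e-06). Macrophage markers fell in 18 of 23 members in epididymal adipocytes, and 18 of 23 passed the test of the difference. Of other markers there, 21 of 23 endothelial, 16 of 26 fibroblast and matrix and 13 of 26 stromal niche members fell. In the same lists 1, 0 and 3 members rose. On the epididymal arrays the mean level of the endothelial list was 8.54 to 8.80 at 14 months and 7.02 to 7.08 at 18 months. At 6 months it was 7.74 to 7.81. What the differences come from was not tested.

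Some B-lineage markers fell in both cell types. In epididymal adipocytes 8 of 21 B-lineage progenitor markers fell and 1 rose, and 12 of 16 mature B cell markers fell, and the difference from marrow passed the test in 6 and 7 members. The difference for Tnf was -1.92 ± 0.26 (adjusted p = 4.75e-05), for Csf1 -2.24 ± 0.31 (5.09e-05), for Gata1 1.000 ± 0.21 (0.00259) and for Mir144 2.92 ± 0.30 (2.31e-06). For Abcb4 it was 0.13 ± 0.21 (0.775), and this gene rose by 1.08 ± 0.15 in epididymal adipocytes too.

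**Figure D5:**
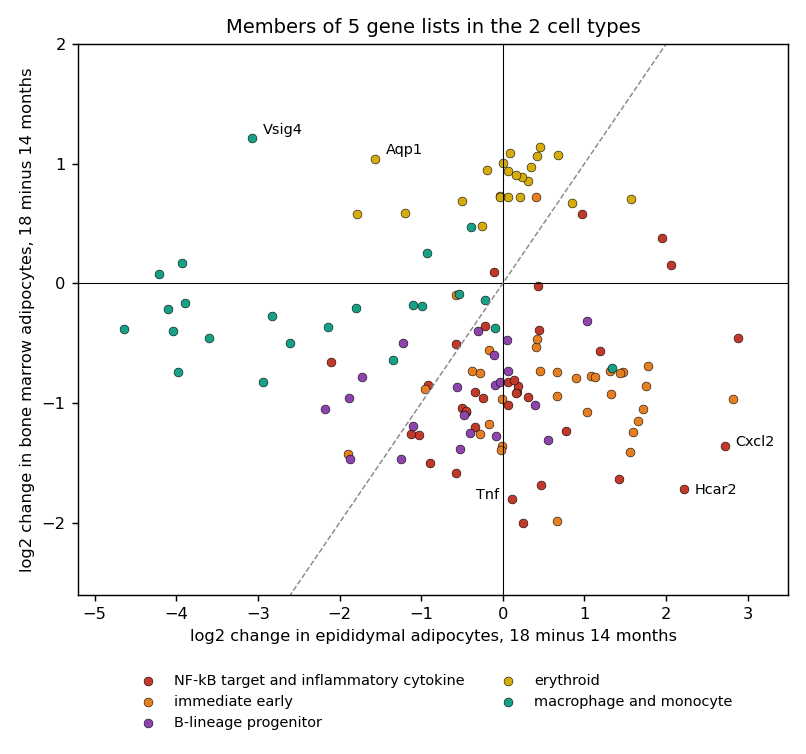
Change from 14 to 18 months (log2) of the members of 5 gene lists in epididymal adipocytes (x axis) and in bone marrow adipocytes (y axis), 1 point per gene; the dashed line marks equal change. Immediate early genes lie mostly at the lower right, macrophage genes at the left and erythroid genes above 0.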

How the data were processed

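Each of 18 pooled RNA preparations went to 1 whole-transcript array (Affymetrix, Mouse Gene 1.0 ST). Scans were processed by the authors in Partek. The paper's methods name gcRMA, then quantile normalization, whereas a supplementary legend names RMA. Which of these gave the deposited log2 values is not settled here, and they were used as they are. The version of the probe annotation and the genome build are not given in the sources used here, and coordinates are RefSeq's (GRCm38.p6). The array annotation names a gene for 23410 of 35556 probe sets, and 1621 of them name several. Single genes were taken from probe sets of 1 gene (19938 genes), by the one with the highest mean.

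A linear model with 1 mean for each group was fitted to all 18 arrays (limma 3.58.1, R 4.3.3). The contrasts were 18 minus 14 months in marrow and the difference of this change from that in epididymal adipocytes, adjusted over all 23410 probe sets. The fit was run on simulated data, with known changes added to independent noise around a common mean. Apart from the added changes these data hold no differences of cell type or array quality, so they do not test the count of calls. Gene lists are described by counts and medians with no set test. The genes, lists and the comparison itself were chosen with earlier results of these data known. Genes were named from the 15 largest rises and falls without overlap of the ages, up to 5 members of each of 45 lists by adjusted p, label markers, genes the study discusses, and the 8 largest differences between cell types among genes without overlap of the ages in marrow. The miRNA loci other than Mir144 and Mir687, Ptgs2, Cebpb, Ccl7, Tfrc, H2-Q10 and Olfr68 were named after their values were seen. The alternatives were other scalings, variance models, arrays in the fit, filters, thresholds and left-out arrays.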

Additional observations from a re-analysis of the deposited data

Results flagged for a closer look

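For the genes below the change from 14 to 18 months differed between bone marrow and epididymal adipocytes by the limma interaction test (adjusted p under 0.05). Each value is the change in marrow minus the change in epididymal adipocytes, on the log2 scale, so that a negative value means a lower change in marrow. The differences were tested, and what they come from was not.

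Among NF-kB and cytokine genes the differences were Tnf -1.92, Csf1 -2.24, Il1b -1.08, Lif -0.71, Cxcl2 -4.08, Hcar2 -3.93, Nfkbia -2.01, Tnfaip3 -3.06, Il6 -1.91 and Ptgs2 -1.01. For Nfkbid, Slc2a6 and Cd274, which were outside that list, they were -1.79, -1.91 and -1.82. Il6 did not pass the test within marrow. For immediate early and stress genes the differences were Atf3 -2.65, Jun -2.80, Dusp6 -1.38, Ier5 -2.84, Egr2 -1.35, Plk2 -2.14, Pmaip1 -1.68, Gadd45b -4.55, Ddit3 -1.98 and Chac1 -1.42. For Arrdc3, Kcnj2 and Asprv1, which were in no list, they were -1.72, -2.12 and -1.84. For B-lineage genes they were Dntt -1.20, Pax5 -0.87, Sox4 -1.87, Fcer2a -1.13, Cr2 -1.12 and Ebf1 -1.41. The class I genes H2-K2 and H2-Q10 had -2.47 and -1.87, and the interferon-stimulated genes Ddx58 and Ifitm3 -1.16 and 0.76. Of myeloid markers, the differences were Csf3r -1.24, Clec4e -1.52, Cd68 2.11, Vsig4 4.29, Itgam 2.11 and Ptprc 2.14, and for class II genes Cd74 3.43 and H2-Eb1 3.40. Itgam and Ptprc did not pass the test within marrow, whereas a fit of the 6 compared arrays alone gave adjusted p = 0.00996 and 0.00191.

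Among red cell genes the differences were Gata1 1.00, Hemgn 1.00, Sptb 1.14, Aqp1 2.61, Hbq1a 2.04, Xk 1.57 and Prdx2 0.98. For miRNA loci they were Mir144 2.92, Mir451a 1.22, Mir687 1.57, Mir146 -1.71 and Mir29a -1.31. For cell division, progenitor, platelet and eosinophil genes they were Cenpf 0.90, Birc5 0.75, Ckap2 1.43, Gfi1b 0.74, Ctla2a 2.45, Slc6a4 2.09, Cd226 2.53 and Prg3 1.18. Of the large rises in no list they were Abcg2 3.39, Tlcd4 1.51, Tspan8 2.15, Slc25a21 1.44, Ces2g 3.33, Pheta2 1.90, Pkhd1l1 3.47, Olfr67 1.59 and Olfr68 0.90, and the 5S ribosomal RNA gene n-R5s136 had -2.47.

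For genes of lipid metabolism the differences were Dgat2 -1.32, Gpam -1.18, Gpat3 -1.59, Scd1 -0.76, Lipe -0.95, Pnpla2 -0.78, Plin2 -1.73 and Acss1 1.10. For regulators of differentiation they were Cebpb -2.30, Irs2 -1.67 and Lepr 1.08, for clock genes Ciart -2.21, Per1 -1.11, Bhlhe41 -2.09, Bhlhe40 -1.66 and Nfil3 -2.56, and for glycolysis and antioxidant genes Pfkfb3 -1.02, Nqo1 0.96, Nfe2l2 -0.77 and Gsr -1.03. Lepr did not pass the test within marrow.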

How the results depend on the processing

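The 3038 probe sets that changed from 14 to 18 months were 1805 when the bone marrow arrays were fitted alone, 1642 at an adjusted p under 0.01 and 458 with a fold of at least 2 added, and leaving out single arrays of the comparison gave 2021 to 2507. Higher counts came with array weights (4461), without the 6-month marrow arrays in the fit (4452) and with the 6 compared arrays alone (3833). The 3699 probe sets whose change differed between cell types were 6000 with array weights and 2773 to 3356 with single arrays left out. For arrays with the same replicate number, deviations from the group mean correlated at -0.18, -0.22 and -0.10 between the ages. Between the cell types within an age they correlated at -0.07 to 0.15. These correlations cannot show whether pools with the same number share mice, since deviations in different cell types need not go together. A replicate block gave 3031 and 3612 probe sets. The compared arrays alone with a replicate block, an alternative chosen after seeing the data, gave 2996.

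The median change of the mature neutrophil list was -0.93 over the brighter probe sets, that of the heme synthesis list 0.80 after repeated quantile normalization and 0.83 after ribosomal protein scaling, and that of the adipocyte differentiation regulators -0.55 over the brighter probe sets and -0.38 after ribosomal protein scaling. With single arrays left out it was -0.91 to -0.74 for mature neutrophil, 0.72 to 0.95 for erythroid and -0.56 to -0.37 for adipocyte differentiation regulators. After ribosomal protein scaling 3 plasma cell, 3 class II and 5 unfolded protein response genes fell, and with the bone marrow arrays alone 4, 5 and 5 did. With single arrays of the comparison left out, Adipoq changed by -0.0071 to 0.49 (lowest without the 14-month replicate 2). Plin1 changed by -0.21 to 0.21, below 0 without the 14-month replicate 2 (-0.085) or 3 (-0.064) or the 18-month replicate 3. Il6 changed by -0.21 to 0.42, below 0 without the 14-month replicate 1 (-0.15) or the 18-month replicate 3. These genes did not pass the test in any of these fits, and the cause of these shifts was not tested. Of 125 named genes with a call, 9 lost it when the bone marrow arrays were fitted alone, 4 after ribosomal protein scaling, 2 after repeated quantile normalization and 2 to 9 without single arrays of the comparison.

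Marrow and epididymal pools share mice, which the labels do not match pool by pool. Pools, not animals, are the replicates, and their number of 3 per age limits the precision. Each age is a separate set of mice, and the sources used here give no day of harvest or isolation batch. The effect of age therefore cannot be told apart from that of harvest, batch or body weight. The lowest signals, such as Lep and the olfactory receptor genes, lie near the floor of the arrays, where changes are compressed.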

Other observations

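A pair of olfactory receptor genes rose in marrow, where no role of theirs is established. Olfr68 and its pairing with Olfr67 were picked out after the values were seen. Olfr67 was among the 15 largest rises, with a change of 1.53 ± 0.12 (limma adjusted p = 7.80e-07), and Olfr68 changed by 0.81 ± 0.12 (limma adjusted p = 2.64e-04). In RefSeq's gene order both lie beside the beta-globin genes. Of the 15 genes measured within 100 kb of these, Olfr69 changed by 0.36 ± 0.14 (limma adjusted p = 0.111) and did not pass the test, and the embryonic globin gene Hbb-y changed by 0.47 ± 0.14 (limma adjusted p = 0.0323). Of 1027 olfactory receptor genes measured on the array, 3 rose and 2 fell.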
